A study of Mus musculus with 12 samples.

Results

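The genes described here are 10 genes of DNA replication licensing and the replication fork, chosen by symbol: *Mcm2*, *Mcm3*, *Mcm4*, *Mcm5*, *Mcm6*, *Mcm7*, *Cdc6*, *Cdt1*, *Pcna* and *Rrm2*. All 10 were among the 14244 gene rows of the deposited table, and all 10 passed the filter on low values (a mean of at least 10), which left 12808 genes. They were measured in RNA from gut epithelial cells of C57BL/6 mice, all male littermates 8 weeks old, of which 5 were WT and 7 carried the heterozygous *Chd8L*+/- knockout, a deletion of several exons on 1 allele that removes the large isoform of the chromatin remodeler CHD8 in the whole animal. Each mouse gave 1 library of poly(A) RNA. Values are normalized counts, that is reads on a gene divided by the size factor of the library, over 15691662 to 20761315 reads per library.

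Before a cell copies its DNA, the origin recognition complex, CDC6 and CDT1 load the ring-shaped MCM2 to MCM7 complex onto chromatin, a step called licensing. The loaded ring later becomes the core of the helicase that opens the fork, where PCNA, the sliding clamp, holds the polymerases on the template, while ribonucleotide reductase, with RRM2 as its small subunit, supplies deoxynucleotides. In the gut epithelium cells divide in the crypts, and the cells that move up the villi stop dividing and differentiate.

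All 10 genes had a higher mean in the libraries labelled *Chd8L*+/- than in WT, and none passed the adjusted threshold. Taken from limma as differences of mean log2 values, the 6 MCM genes and *Rrm2* were 1.80-fold to 1.98-fold higher. On the same scale *Cdc6* and *Cdt1* were 1.42-fold and 1.37-fold higher, and *Pcna* was 1.11-fold higher. The count models edgeR and DESeq2 gave smaller differences, with a median log2 fold change of 0.67 in both against 0.89 in limma. WT replicate 2, the highest WT library for all 10 genes, stood with the *Chd8L*+/- libraries. Without that 1 library 9 of the 10 genes passed in limma as higher, and so did 14.0% of all genes tested. In bulk RNA, more cells in cycle and more of these transcripts in each cell of *Chd8L*+/- cannot be told apart.

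Promoter sequences of RefSeq (250 bases before to 50 after a start, build GRCm38.p6) were matched for 9 of the 10 genes. Each was searched on both strands for 4 words of the E2F type, TTTCCCGC, TTTGGCGC, TTTCGCGC and TTTGCCGC, since E2F factors are the textbook regulators of genes used at the entry into S phase. The words were present in 6 of these 9 genes (*Mcm3*, *Mcm5*, *Mcm6*, *Mcm7*, *Cdc6* and *Cdt1*), against 2.605% of the 27025 genes that have such a window and 4.43% of the 10024 tested genes that have one. Within the 250 bases before the start alone they were present in 4 of the 9 (*Mcm5*, *Mcm6*, *Mcm7* and *Cdc6*), against 2.16% of genes. *Mcm2*, *Pcna* and *Rrm2* had none of the 4 words in these windows, and *Mcm4*, a gene at chr16:15623897-15637400 on the minus strand in GENCODE M21, was not matched. The stretches with the words are given 5′ to 3′ on the strand of the gene, with E2F-type words and the CCAAT box, also read as ATTGG, in capitals. *Mcm7* has windows at 2 starts, and its words lie in that of the upstream start.
Mcm5, chr8:75109327-75109396, plus strand, bases -182 to -113 from the start: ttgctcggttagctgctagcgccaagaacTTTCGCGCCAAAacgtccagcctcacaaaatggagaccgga
Mcm6, chr1:128359775-128359844, minus strand, bases -139 to -70: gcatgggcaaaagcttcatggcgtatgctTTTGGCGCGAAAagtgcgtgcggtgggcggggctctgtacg
Mcm6, chr1:128359714-128359783, minus strand, bases -78 to -9: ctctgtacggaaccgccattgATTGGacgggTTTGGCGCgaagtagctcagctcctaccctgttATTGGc
Cdc6, chr11:98907982-98908051, plus strand, bases -169 to -100: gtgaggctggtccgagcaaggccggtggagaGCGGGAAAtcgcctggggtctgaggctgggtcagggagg
Mcm3, chr1:20820266-20820295, minus strand, bases 18 to 47, in an exon: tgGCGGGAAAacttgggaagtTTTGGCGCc
Mcm7, chr5:138172030-138172059, minus strand, bases -176 to -147, in an exon: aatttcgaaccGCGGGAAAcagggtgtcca
Mcm7, chr5:138171849-138171878, minus strand, bases 6 to 35, in an exon: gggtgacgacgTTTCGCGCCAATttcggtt
Cdt1, chr8:122568035-122568064, plus strand, bases 21 to 50, in an exon: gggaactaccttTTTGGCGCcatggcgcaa
In *Mcm5* and in the first stretch of *Mcm6*, a word on one strand overlapped a word on the other, and in the second stretch of *Mcm7* the word overlapped a CCAAT box.

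For the 3 genes whose windows held none of these words, the CCAAT box nearest to the start is shown. The stretch of *Pcna* lies in an exon.
Mcm2, chr6:88898919-88898988, minus strand, bases -208 to -139: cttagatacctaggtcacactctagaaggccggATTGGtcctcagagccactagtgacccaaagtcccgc
Rrm2, chr12:24708171-24708240, plus strand, bases -83 to -14: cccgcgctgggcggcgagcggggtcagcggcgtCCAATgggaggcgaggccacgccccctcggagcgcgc
Pcna, chr2:132253251-132253280, minus strand, bases -100 to -71: aaccacgggtacgATTGGtccttgaggaga
A CCAAT box was present in 7 of the 9 genes (all but *Cdc6* and *Cdt1*), against 41.1% of all genes with a window and 43.0% of tested genes. The word TTTGAA, known from promoters of genes used in G2 and mitosis as the CHR element, was present in 1 of the 9 (*Mcm2*), against 20.2% of all genes and 14.6% of tested genes. It was present in 11 of the 14 matched genes of a mitosis list, and a CCAAT box in 14 of those 14. The E2F-type words were present in 1 of those 14 mitosis genes and in 24 of 87 matched genes among the other replication and G1/S genes described below. The GC box letters GGGCGG were present in 7 of the 9 genes, in 38.2% of all genes and in 66.7% of tested genes. These matches describe letters in a window of RefSeq sequence, and no binding was measured.

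*Chd8*, the targeted gene, had normalized counts of 1002, 1050, 934, 955 and 823 in WT replicates 1 to 5, and the *Chd8L*+/- libraries ran from 1084 through a median of 1281 to 1483. All 7 *Chd8L*+/- libraries therefore lay above all 5 WT libraries (log2 fold change 0.44, standard error 0.10, limma adjusted p = 0.121, two-sided exact permutation p = 0.00126, the smallest these groups allow). DESeq2 on all 12 libraries gave it an adjusted p of 0.00378, and without WT replicate 2 limma gave a log2 fold change of 0.48 with an adjusted p of 0.00676. The counts cover the whole gene and do not separate the exons that were deleted, so they do not check the genotype labels. WT replicate 2 stood apart from the other WT libraries over all genes: on the first principal component, which held 39.7% of the variance, it lay at 41.0, with the other 4 WT libraries between -67.5 and -26.2 and the *Chd8L*+/- libraries between 0.26 and 42.7. The calls of the 10 genes and of each list are therefore given with and without this library. Dixon's test for a single outlying library, run per gene and genotype on the 10 genes and *Chd8*, flagged 0 of 22 groups. WT replicate 2 held the highest WT value of each of the 10 genes, so leaving it out must raise their limma fold changes. The p-values of the fits without it do not allow for that choice.

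*Mcm2*, which with *Mcm5* forms the gate of the ring, had normalized counts of 426, 835, 173, 195 and 246 in WT replicates 1 to 5. In *Chd8L*+/- the lowest library was at 315, the median at 714 and the highest at 833. WT replicate 2 was above every *Chd8L*+/- library, the other 4 WT libraries were all below the *Chd8L*+/- median, and 6 of 7 *Chd8L*+/- libraries were above those 4. The mean normalized count was 375 ± 276 (SD, n = 5) for WT against 646 ± 182 (SD, n = 7) for *Chd8L*+/-, and limma gave a log2 fold change of 0.98 (standard error 0.36, limma adjusted p = 0.136), where a fold change is the difference of mean log2(normalized count + 1).

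*Mcm3*, a subunit that contacts the loading complex when the ring is recruited, was read at 420, 790, 111, 137 and 228 in WT replicates 1 to 5. The *Chd8L*+/- libraries spanned 271 to 759 with a median of 576. Again WT replicate 2 was the highest of all 12 libraries, while WT replicate 1 lay inside the *Chd8L*+/- range. The log2 fold change of 0.98 had the widest standard error among the 10 genes, 0.42 (limma adjusted p = 0.176).

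*Mcm4*, which with *Mcm6* and *Mcm7* forms a subcomplex with helicase activity of its own in vitro, had values of 372, 703, 141, 132 and 222 in the WT replicates in order. The *Chd8L*+/- values ran from 272 through 498 to 693 normalized counts. WT replicates 3, 4 and 5 lay below every *Chd8L*+/- library and WT replicate 2 above every one (log2 fold change 0.97, standard error 0.37, limma adjusted p = 0.148). *Mcm4* lies head to head with *Prkdc*, the gene of the catalytic subunit of the DNA-dependent protein kinase, with 466 bases between the 2 genes, and *Prkdc* had 165 ± 71.6 normalized counts in WT and 226 ± 32.1 in *Chd8L*+/- (log2 fold change 0.54, limma adjusted p = 0.161).

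*Mcm5* had normalized counts of 466, 990, 205, 210 and 266 in WT replicates 1 to 5, and the *Chd8L*+/- libraries had a lowest value of 408, a median of 713 and a highest of 980. WT replicate 1 lay inside the *Chd8L*+/- range, WT replicate 2 above every *Chd8L*+/- library and the other 3 below every one (log2 fold change 0.93, standard error 0.35, limma adjusted p = 0.145). *Mcm6* was at 840, 1450, 295, 390 and 538 in WT and between 717 and 1460 in *Chd8L*+/-, with a median of 1235. WT replicates 1 and 2 lay inside the *Chd8L*+/- range and the other 3 below it (log2 fold change 0.85, standard error 0.33, limma adjusted p = 0.154).

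*Mcm7* had 548, 1024, 295, 328 and 315 normalized counts in WT replicates 1 to 5, and the *Chd8L*+/- libraries ran from 507 through 866 to 1188. It had the lowest limma adjusted p of the 10 genes, 0.128, and its log2 fold change was 0.86 (standard error 0.30). Over the 10 genes the two-sided exact permutation p, unadjusted, ran from 0.0391 for *Mcm7* to 0.409 for *Pcna*. The *Mcm7* gene overlaps *Cops6* and *Ap4m1* on the other strand, and the use of strand in counting is not given in the sources used here, so reads in the overlaps cannot be assigned. *Cops6* was at 948 ± 72.7 in WT and 938 ± 89.7 in *Chd8L*+/- (log2 fold change -0.02, limma adjusted p = 0.929), and *Ap4m1* at 141 ± 10.8 and 181 ± 38.4 (log2 fold change 0.33, limma adjusted p = 0.216).

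*Cdc6*, the ATPase that joins the origin recognition complex to load the ring, had 145, 189, 78.6, 60.5 and 135 normalized counts in WT replicates 1 to 5. In *Chd8L*+/- it ran from 138 through 158 to 182, so these 7 libraries were within 1.32-fold of each other while the WT libraries differed by up to 3.12-fold. WT replicate 2 was above all *Chd8L*+/- libraries (log2 fold change 0.50, standard error 0.24, limma adjusted p = 0.215). *Cdt1*, the partner of CDC6 that geminin inhibits, was at 346, 509, 253, 203 and 275 in WT and between 311 and 594 in *Chd8L*+/-, with a median of 422. WT replicates 1 and 2 lay inside that range (log2 fold change 0.46, standard error 0.21, limma adjusted p = 0.205). A predicted gene on the same strand, *Gm20388*, overlaps *Cdt1*, and reads of the overlap cannot be assigned either.

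*Pcna* had the smallest fold change of the 10. Its normalized counts were 1589, 2193, 1134, 1234 and 1528 in WT replicates 1 to 5, and 1378, 1622 and 2160 at the lowest, median and highest *Chd8L*+/- library. The groups overlapped broadly, with 5 of 7 *Chd8L*+/- libraries above the WT median against 7 of 7 for each of the other 9 genes. Mean normalized counts were 1536 ± 414 for WT (SD, n = 5) against 1667 ± 250 for *Chd8L*+/- (SD, n = 7). The log2 fold change, 0.14, was smaller than its standard error of 0.16 (limma adjusted p = 0.594). The annotation also holds the processed pseudogenes *Pcna-ps1* and *Pcna-ps2*, and how reads that match them were counted is not given in the sources used here.

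*Rrm2* had normalized counts of 253, 614, 92.8, 138 and 206 in WT replicates 1 to 5. The *Chd8L*+/- libraries had a lowest value of 282, a median of 345 and a highest of 652. It was the only one of the 10 genes for which all 7 *Chd8L*+/- libraries were above the 4 WT libraries other than replicate 2 (log2 fold change 0.91, standard error 0.37, limma adjusted p = 0.165).

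**Figure D1:**
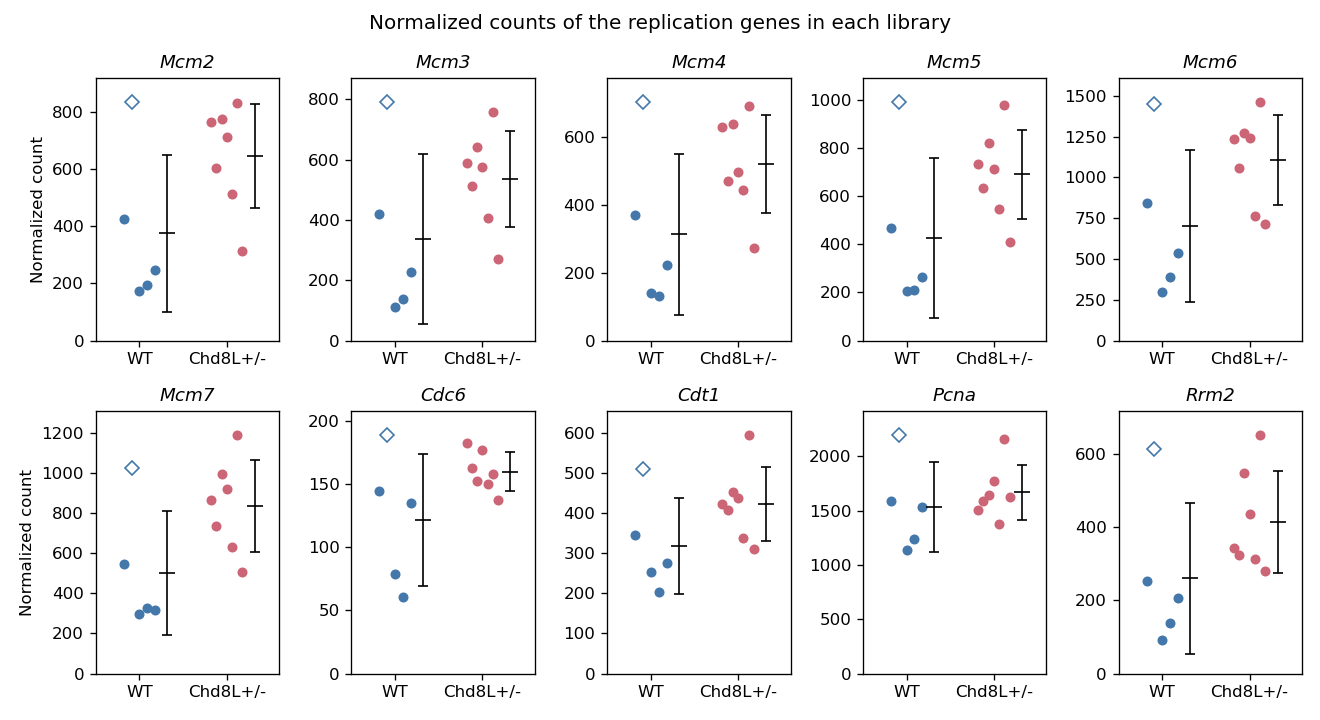
Normalized counts (y axes, linear and starting at 0) of the 10 genes in the 5 WT and 7 *Chd8L*+/- libraries (x axes). Filled points are libraries, the open diamond is WT replicate 2, and the bar to the right of each group is its mean ± SD. The diamond is the highest WT value in all 10 panels and the other 4 WT libraries sit mostly below the *Chd8L*+/- points, with the exception of *Pcna*, where the groups overlap broadly.

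By limma over all 12 libraries, 0 of the 10 genes passed an adjusted p of at most 0.05 in the direction of *Chd8L*+/-, as did 0% of the genes tested, and 3 genes in all passed, each lower in *Chd8L*+/-. At an unadjusted p of at most 0.05 8 of the 10 were higher (all but *Cdc6* and *Pcna*), against 12.5% of all genes tested. That count depended on the tool: it was 1 of 10 in edgeR, where 1284 of the 12808 genes were higher by the same rule, and 2 of 10 in DESeq2, where 11.1% were. It also depended on single libraries, being 1 of 10 without WT replicate 3 (background 6.81%), 2 without WT replicate 4 (7.55%), 5 without *Chd8L*+/- replicate 3 (9.41%) and 5 without *Chd8L*+/- replicate 6 (1414 of 12815 genes). At the adjusted threshold 0 of the 10 passed in edgeR (background 0%), in DESeq2 (1.84%), or with the first letter of the library name as a block (1.37%). For no gene of the 10 were all *Chd8L*+/- libraries above all WT libraries, a pattern found in 0.242% of the genes tested. Against the 4 WT libraries other than replicate 2, 1 of the 10 had that pattern (*Rrm2*), where 6.69% of the genes did.

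Without WT replicate 2, 9 of the 10 genes rose in *Chd8L*+/- by limma, against 14.0% of all genes tested. Their log2 fold changes were then 1.34 for *Mcm2*, 1.39 for *Mcm3*, 1.34 for *Mcm4*, 1.30 for *Mcm5*, 1.17 for *Mcm6*, 1.16 for *Mcm7* and 1.30 for *Rrm2*, with limma adjusted p-values between 0.00486 and 0.0116. *Cdc6* was at 0.69 (limma adjusted p = 0.0339) and *Cdt1* at 0.65 (limma adjusted p = 0.0201), and *Pcna*, at 0.28, did not pass (limma adjusted p = 0.137). edgeR called 8 of the 10 without this library (background 14.1%) and DESeq2 called 9 (background 15.0%). In limma the median log2 fold change of the 10 genes was 0.89 with all libraries and 1.23 without WT replicate 2. The limma median over all genes tested was 0.014 in both cases. With all libraries the median of the 10 was 0.67 in both edgeR and DESeq2, and without WT replicate 2 it was 1.23 and 1.21.

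**Figure D2:**
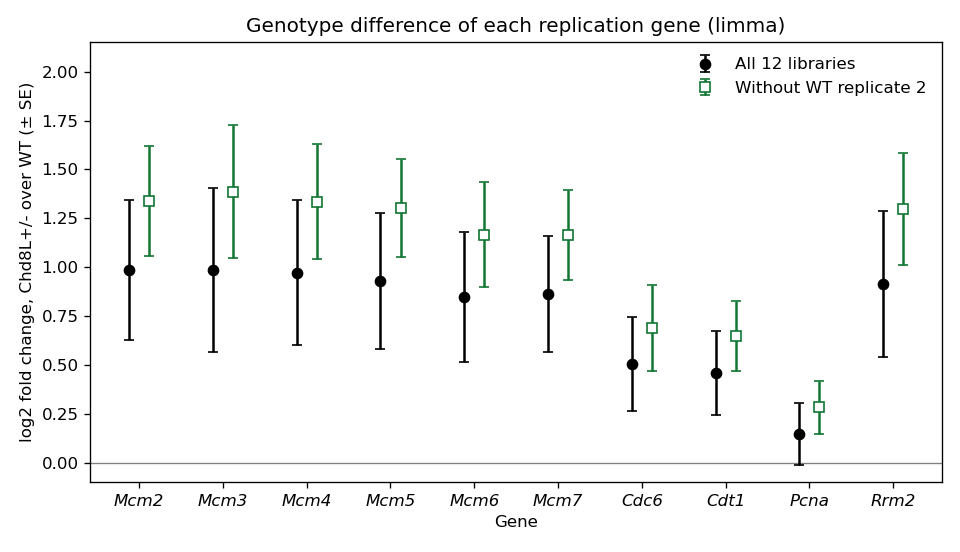
Log2 fold change of each gene, *Chd8L*+/- over WT, from limma (y axis, difference of mean log2(normalized count + 1)); error bars are standard errors. Black points use all 12 libraries and green squares leave out WT replicate 2. *Mcm2* to *Mcm7* and *Rrm2* lie between 0.85 and 0.98 with all libraries, *Cdc6* and *Cdt1* near 0.5, and *Pcna* at 0.14, and every gene is further from 0 without WT replicate 2.

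On the log2 scale the SD was wider in WT than in *Chd8L*+/- for 10 of the 10 genes with all libraries, and for 9 of the 10 without WT replicate 2, the exception being *Mcm7* (0.41 in the other 4 WT libraries and 0.42 in *Chd8L*+/-). The share of all tested genes with a wider SD in WT was not counted. Over all genes the first principal component also spread wider in WT, from -67.5 to 41.0, against 0.26 to 42.7 in *Chd8L*+/-. The SD of *Mcm3* was 1.16 in WT, 0.85 without WT replicate 2 and 0.49 in *Chd8L*+/-, and that of *Cdc6* was 0.67, 0.60 and 0.14. The mean over the 10 genes, as a log2 deviation from the mean over libraries, was -0.06, 0.76, -1.20, -1.11 and -0.61 in WT replicates 1 to 5. The *Chd8L*+/- libraries ran from -0.27 (replicate 7) through a median of 0.43 to 0.78 (replicate 6), which put *Chd8L*+/- replicate 7 below WT replicate 1.

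The library names open with a letter, A to D, whose meaning is not given in the sources used here. Within letter A, with 2 libraries of each genotype, the mean difference over the 10 genes was 0.15 on the log2 scale and 8 of the 10 genes were higher in *Chd8L*+/-. This letter holds WT replicate 2. Within letter B, with 2 WT and 1 *Chd8L*+/- library, it was 0.88, and within letter C, with 1 WT and 3 *Chd8L*+/- libraries, it was 1.69, with 10 of 10 genes higher in both. Letter D held 1 *Chd8L*+/- library alone. With the letter as a block in limma the median log2 fold change of the 10 genes was 0.96 and the lowest adjusted p was 0.0525.

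Levels can be set beside each other between genes only per length, and here normalized counts were divided by the exon length of GENCODE M21. That length merges all annotated exons of a gene, and which of its transcripts these cells express was not measured. *Mcm2* was divided by 6956 bases, *Cdc6* by 5229, the other MCM genes by 3589 to 4666 and *Pcna* by 2400. The order between genes therefore depends on the length used. On this scale *Pcna* was the highest of the 10 in 12 of 12 libraries, with 640 ± 173 normalized counts per kilobase in WT (SD, n = 5) against 694 ± 104 in *Chd8L*+/- (SD, n = 7). *Cdc6* was the lowest in 12 of 12, with 23.3 ± 9.95 and 30.6 ± 2.98. Between them the order by median over all 12 libraries was *Mcm6* (203), *Mcm7* (155), *Mcm5* (148), *Mcm4* (128), *Mcm3* (124), *Cdt1* (120), *Rrm2* (115) and *Mcm2* (80.5). The order of neighbours was the same in 11 or 12 libraries except for *Mcm4* over *Mcm3* (7 of 12), *Mcm3* over *Cdt1* (8) and *Cdt1* over *Rrm2* (6), which were not separated. Among these 4 genes the order of the means differed by genotype: in WT *Cdt1* (101) was above *Rrm2* (94.1), *Mcm3* (89.9) and *Mcm4* (87.5), and in *Chd8L*+/- *Rrm2* (150) was above *Mcm4* (145), *Mcm3* (143) and *Cdt1* (135).

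The 6 subunits of the ring occur in equal number in the complex, but their levels per kilobase, on the merged exon length, differed. Of the summed level per kilobase of *Mcm2* to *Mcm7*, *Mcm6* made up 25.5% ± 2.13 in WT (SD, n = 5) against 24.4% ± 1.75 in *Chd8L*+/- (SD, n = 7), and *Mcm2* made up 8.91% ± 0.219 and 9.42% ± 0.711. The other shares were 20.1% and 19.3% for *Mcm7*, 17.5% and 17.7% for *Mcm5*, 14.2% and 14.8% for *Mcm4*, and 13.9% and 14.5% for *Mcm3*. The ranges of WT and *Chd8L*+/- libraries overlapped for all 6 genes, while the summed normalized count of the 6 genes itself ran from 1221 to 5793 in WT and from 2489 to 5913 in *Chd8L*+/-. WT replicate 3 had the smallest share of *Mcm3*, 10.7%, and WT replicates 3 and 4 had the smallest summed counts.

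**Figure D3:**
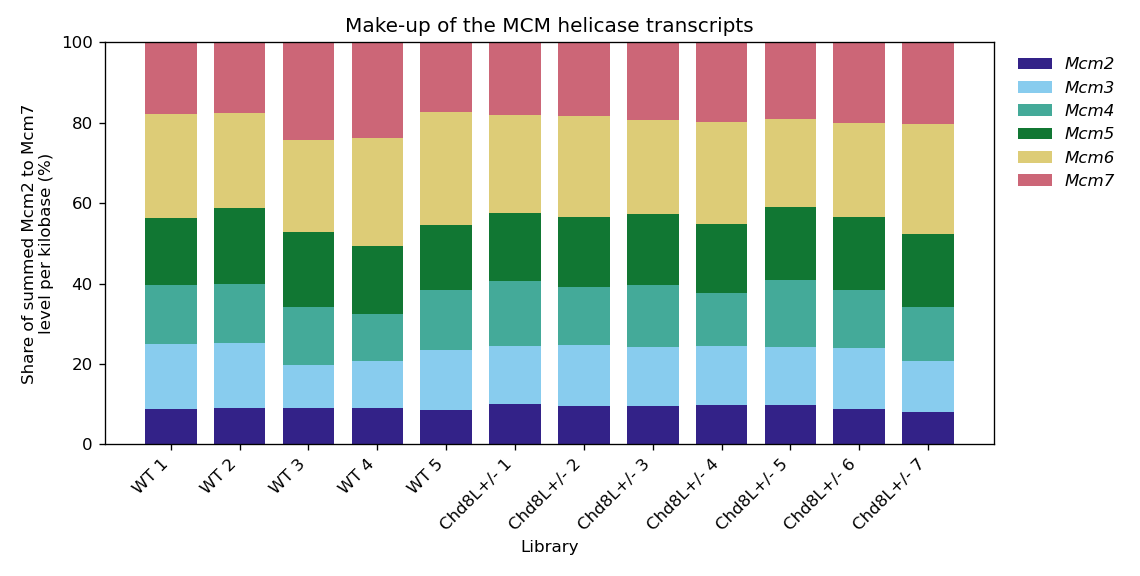
Share of each MCM gene in the summed level per kilobase of *Mcm2* to *Mcm7* (y axis, percent) in each library (x axis). Each bar is 1 library and sums to 100%. *Mcm6* is near 25% and *Mcm2* near 9% in both genotypes.

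Set against *Pcna* within the same library, the MCM genes stood lower in WT. The mean log2 of *Mcm2* to *Mcm7* minus that of *Pcna* was, on normalized counts, -2.08 ± 0.60 in WT (SD, n = 5) against -1.30 ± 0.37 in *Chd8L*+/- (SD, n = 7). WT replicates 1 and 2, at -1.69 and -1.22, lay inside the *Chd8L*+/- range, and *Chd8L*+/- replicate 7, at -2.06, lay among the WT libraries. This is a difference of levels within a library and was not tested, since it is taken over the chosen genes.

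The other genes of DNA replication and G1/S regulation were taken from lists fixed by role, 109 genes in all, each above the filter. Of these 91 were higher and 18 lower in *Chd8L*+/-, and 0 passed the adjusted threshold in limma. At an unadjusted p of at most 0.05 51 were higher and 4 lower, against 12.5% and 11.8% of all genes tested. Without WT replicate 2, 65 rose and 3 fell at the adjusted threshold, against 14.0% and 13.6%. Their median log2 fold change was 0.54, and 0.76 without WT replicate 2.

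Of 8 genes in the list of origin recognition and licensing partners, 7 were higher and 0 passed the unadjusted threshold in limma. Their median log2 fold change was 0.20, and 0.23 without WT replicate 2, when 3 passed the adjusted threshold and rose. *Orc2* had 143 ± 56.1 normalized counts in WT and 180 ± 19.2 in *Chd8L*+/- (log2 fold change 0.40, limma adjusted p = 0.234), *Orc3* had 292 ± 50.7 and 341 ± 27.9 (0.24, limma adjusted p = 0.261), and *Orc1*, at 32.4 ± 26.2 and 46.0 ± 14.0, had few reads (0.85, limma adjusted p = 0.259). *Gmnn*, which encodes the CDT1 inhibitor geminin and is named here after its values were seen, was the 1 lower gene (log2 fold change -0.26, standard error 0.19, limma adjusted p = 0.406).

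In the list of helicase activation and origin firing 13 of 14 were higher, 9 of them past the unadjusted threshold, and the median was 0.78. In the fit without WT replicate 2, 11 of 14 rose (median 1.06). *Ticrr*, whose product treslin brings CDC45 to the ring, had 66.5 ± 47.5 normalized counts in WT and 162 ± 48.0 in *Chd8L*+/- (2.82-fold, limma adjusted p = 0.121). Its *Chd8L*+/- libraries were at 110 to 248, and 5 of 7 were above every WT library. *Topbp1*, the scaffold of the same step, was 1.87-fold higher (limma adjusted p = 0.121), and *Gins2*, a subunit of the GINS part of the helicase, 2.35-fold (limma adjusted p = 0.128).

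Among DNA polymerases and primase, 9 of 12 genes were higher and the median log2 fold change was 0.76. When WT replicate 2 was left out, 7 rose and 1 fell (median 1.04). *Pole*, the catalytic subunit of the leading-strand polymerase, had 106 ± 76.5 normalized counts in WT and 225 ± 42.1 in *Chd8L*+/- (log2 fold change 1.31, limma adjusted p = 0.121), *Pole2* had a log2 fold change of 0.84 and *Pold1* of 0.95 (limma adjusted p = 0.127 for both). Of the 3 lower genes, 2 passed the unadjusted threshold and are named here after their values were seen: the small polymerase delta subunit *Pold4* (431 ± 166 and 253 ± 43.9, log2 fold change -0.66, limma adjusted p = 0.154) and the primase-associated subunit *Pola2* (-0.33, limma adjusted p = 0.189). Without WT replicate 2 *Pold4* fell by 0.96 on the log2 scale (limma adjusted p = 0.00338).

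Of 18 genes of clamp loading, strand maturation and single-strand binding, 17 were higher with a median of 0.46, 10 of them past the unadjusted threshold. Of these 18, 11 rose without WT replicate 2 (median 0.63). *Atad5*, which takes PCNA off DNA, had a log2 fold change of 0.78, *Chtf18*, of an alternative clamp loader, 1.03, and the nuclease gene *Dna2* 1.14 (limma adjusted p = 0.121, 0.127 and 0.129). In deoxynucleotide supply, 6 of 9 were higher with a median of 0.67, and 5 of 9 rose without WT replicate 2 (median 0.97). *Rrm1*, the large subunit that pairs with RRM2, had 519 ± 347 normalized counts in WT and 838 ± 268 in *Chd8L*+/- (log2 fold change 0.84, limma adjusted p = 0.154), close to the 0.91 of *Rrm2*. Thymidylate synthase *Tyms* was at 0.93 and thymidine kinase *Tk1* at 0.74 (limma adjusted p = 0.155 and 0.161).

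The list of fork protection and checkpoint genes had 6 of 6 higher, 5 of them past the unadjusted threshold, and the median log2 fold change was 1.07. Leaving out WT replicate 2, 5 of 6 rose (median 1.46). *Clspn*, the mediator claspin, had a log2 fold change of 1.30, the kinase gene *Atr* 1.16 and *Timeless* 1.04 (limma adjusted p = 0.121, 0.121 and 0.142). In replication-coupled chromatin assembly 7 of 8 were higher with a median of 0.92, and 6 of 8 rose without WT replicate 2 (median 1.19). *Dnmt1*, the maintenance DNA methyltransferase, had 617 ± 449 normalized counts in WT and 1077 ± 248 in *Chd8L*+/- (log2 fold change 1.02), and the histone chaperone genes *Asf1b* and *Chaf1a* had 1.08 and 0.87 (limma adjusted p = 0.125, 0.129 and 0.131).

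Among 22 G1/S regulators 18 were higher, 7 of them past the unadjusted threshold, and the median was 0.43. Of the 22, 13 rose without WT replicate 2 (median 0.59). The activator *E2f2* had 339 ± 153 normalized counts in WT and 668 ± 197 in *Chd8L*+/- (log2 fold change 1.02), the kinase gene *Cdk6* 70.5 ± 49.7 and 131 ± 18.2 (1.12), and the repressor *E2f7* 45.3 ± 45.2 and 98.8 ± 30.7 (1.53), each with a limma adjusted p of 0.121. For *E2f2*, 5 of 7 *Chd8L*+/- libraries were above every WT library.

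Genes that inhibit or remove licensing factors were split, with 6 of 10 higher and a median log2 fold change of 0.16, and without WT replicate 2 3 rose and 2 fell (median 0.17). *Dtl*, the substrate receptor of the ligase that destroys CDT1 on PCNA-bound chromatin, had a log2 fold change of 1.30 (120 ± 101 and 235 ± 56.1 normalized counts, limma adjusted p = 0.121), and *Fbxo5*, an inhibitor of the anaphase-promoting complex, 0.78 (limma adjusted p = 0.154). *Cdkn1c*, a CDK inhibitor gene, was lower at 134 ± 44.1 against 243 ± 99.2 (-0.83, limma adjusted p = 0.142). *Cdkn1a*, which encodes the PCNA-binding CDK inhibitor p21 and is named here after its values were seen, was at 5973 ± 2136 in WT and 3781 ± 839 in *Chd8L*+/- (-0.58, limma adjusted p = 0.187). WT replicate 2 had the lowest WT value of *Cdkn1a*, 2499, below every *Chd8L*+/- library, and without it *Cdkn1a* fell by 0.87 and *Cdkn1c* by 1.07 on the log2 scale (limma adjusted p = 0.00499 and 0.0148). The MCM relatives outside the hexamer, *Mcm8* and *Mcm9*, which work in recombination, had log2 fold changes of 1.35 and 0.28 (limma adjusted p = 0.121 and 0.260). *Mcm8* had few reads, with 31.9 ± 20.7 normalized counts in WT and 74.5 ± 21.1 in *Chd8L*+/-. Of the pair, *Mcm8* alone rose without WT replicate 2 (1.65, limma adjusted p = 0.00292).

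Of 17 mitosis genes, which act after replication, 17 were higher, all past the unadjusted threshold, and 0 passed the adjusted threshold in limma. Their median log2 fold change was 1.22, and 1.58 without WT replicate 2, when 17 of 17 rose against 14.0% of all genes tested. *Mki67*, the proliferation antigen, had normalized counts of 1196, 3136, 470, 508 and 819 in WT replicates 1 to 5 and ran from 1777 through 2678 to 3585 in *Chd8L*+/- (log2 fold change 1.45, limma adjusted p = 0.121). *Kif20a* had a log2 fold change of 1.46 and *Cenpf* of 1.22 (limma adjusted p = 0.121 for both). WT replicate 2 was thus high in mitosis genes as in the replication genes. No test of a difference between the lists was made.

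**Figure D4:**
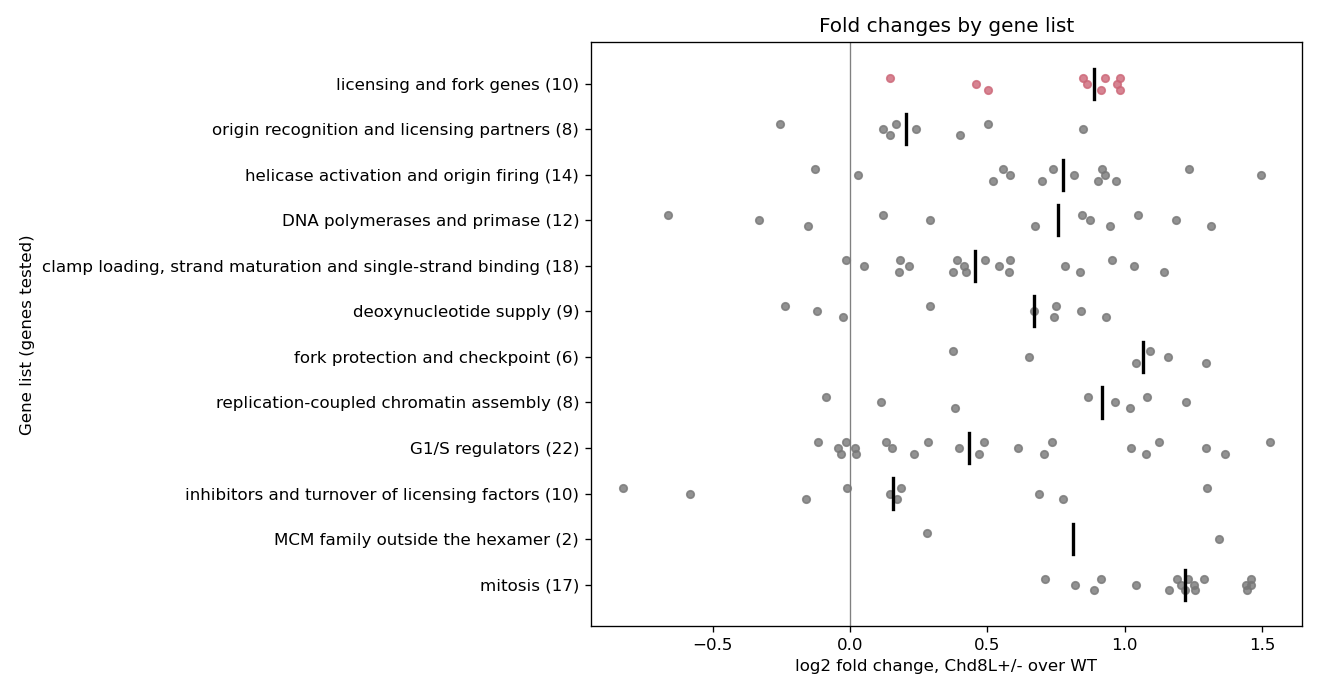
Log2 fold change of every tested gene, *Chd8L*+/- over WT (x axis, difference of mean log2(normalized count + 1) over 12 libraries), by list (y axis, number of genes tested in brackets). Points are genes, with the 10 licensing and fork genes in red, and the black bar is the median of the list. Medians run from 0.16 for inhibitors and turnover and 0.20 for origin recognition to 1.22 for mitosis, with 0.89 for the 10 genes.

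Over the 12 libraries, the genes outside the 10 whose profile was closest to their mean profile were *Wdr75*, *Fads2*, *Ipo5*, *Rrp9*, *Utp15*, *Ears2*, *Wdr43*, *Topbp1*, *Chaf1a* and *Syde2*. The measure was the root mean square difference of log2 deviations, which was 0.107 for *Wdr75* and 0.132 for *Syde2*, against a median of 0.743 over the 12808 genes. *Wdr75*, *Wdr43*, *Utp15* and *Rrp9* encode factors of small ribosomal subunit production, *Ipo5* a nuclear import receptor and *Fads2* a fatty acid desaturase. Of the 10 genes themselves, *Mcm6* was the closest to the mean profile and *Pcna*, with 0.446, the farthest. These profiles share the libraries and include the difference between genotypes, and they are a description.

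Lists of cell type markers also differed in level between libraries. By limma 0 of their genes passed the adjusted threshold with all libraries. Crypt stem cell markers were higher in 6 of 6 genes (median log2 fold change 0.49), with summed normalized counts of 5536 to 17329 in WT, the highest in replicate 2, and of 10820 to 20493 in *Chd8L*+/-. Enterocyte markers were lower in 7 of 8 (median -0.43), with sums of 279129 to 644358 in WT, the lowest in replicate 2, and of 239847 to 578335 in *Chd8L*+/-. Tuft cell markers were lower in 5 of 5 (median -1.97), with sums of 1228 to 10961 in WT, again the lowest in replicate 2, and of 754 to 4692 in *Chd8L*+/-. None of these markers was at 0 in every library. Without WT replicate 2 limma called 2 of 6 stem cell markers higher (median 0.67), 1 of 8 enterocyte markers lower (-0.65) and 5 of 5 tuft cell markers lower (-2.45). Of all genes tested, 14.0% were called higher and 13.6% lower in that fit. The libraries did not all follow 1 order: *Chd8L*+/- replicate 6, the highest of all in the replication genes, had the highest tuft cell mean of its genotype (log2 deviation 0.55), and WT replicate 1 was the highest of all in enterocyte markers (0.52) with the replication genes at -0.06. The part of these cell types in the differences of the replication genes was not tested.

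Cell types that an epithelial preparation may also hold, and the remaining epithelial and colon lists, were read in the same way. Stromal and endothelial markers were higher in 4 of 4 tested genes (median 2.03), but their sums were 40.0 to 239 in WT and 71.0 to 873 in *Chd8L*+/-. Of these genes 3 rose without WT replicate 2, against 14.0% of all genes tested. Myeloid markers were higher in 6 of 6 (median 0.64; sums 285 to 565 and 359 to 938), T cell markers in 1 of 6 (-0.17; 785 to 1641 and 790 to 1813), B and plasma cell markers in 0 of 6 (-0.40; 483 to 2013 and 250.4 to 4228) and germinal centre B cell markers in 2 of 3 tested (0.42; 245 to 562 and 230 to 397). Pan-epithelial markers were higher in 2 of 6 (median -0.17), with sums of 131127 to 219741 in WT and of 130360 to 211395 in *Chd8L*+/-. Paneth cell markers were higher in 1 of 4, goblet cell markers in 1 of 4, enteroendocrine markers in 2 of 5 and colon markers in 3 of 4, with medians of -0.44, -0.28, -0.15 and 0.16. Without WT replicate 2 limma called 1 pan-epithelial marker higher and 1 lower. It called 1 myeloid and 1 Paneth cell marker higher, and 1 goblet cell and 1 enteroendocrine marker lower. In that fit 0 T cell, B and plasma cell, germinal centre B cell or colon markers were called. The part of these lists in the result was not tested.

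**Figure D5:**
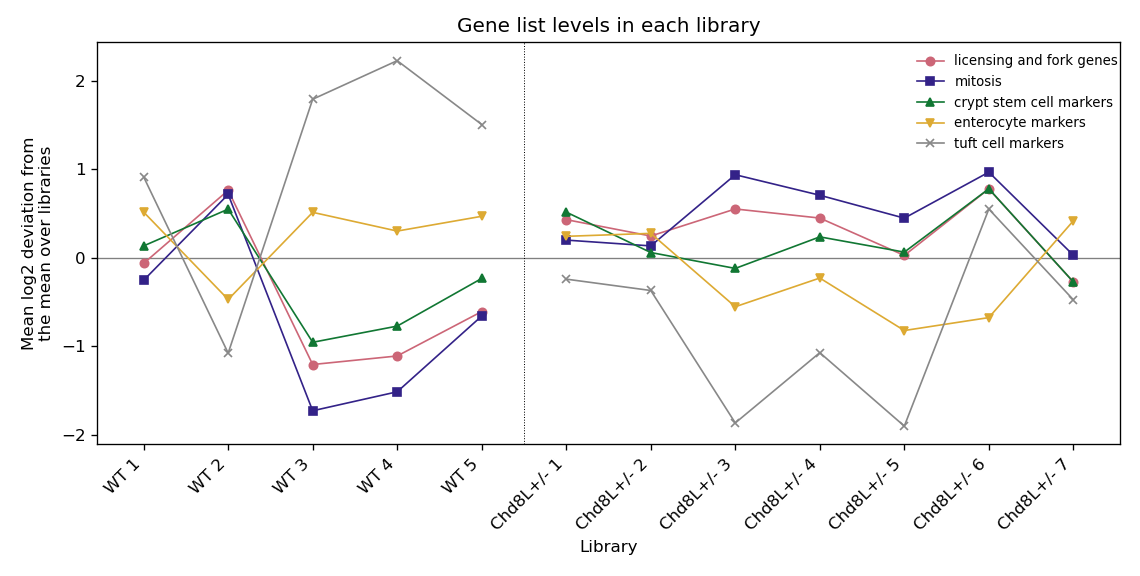
Mean level of 5 gene lists in each library (x axis) as the log2 deviation from the mean over the 12 libraries (y axis). Lines join libraries of 1 genotype for reading only. WT replicate 2 is high in the replication, mitosis and stem cell lists and low in the enterocyte and tuft cell lists, WT replicates 3 and 4 show the opposite, and the replication genes are at 0.76 in the first and at -1.20 and -1.11 in the others.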

How the data were processed

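Gut epithelial RNA of 5 WT and 7 *Chd8L*+/- mice was sequenced as single-end reads, mapped by the authors to mm10 with Tophat2 and run through DESeq2. The authors deposited a signal per gene and library, reads divided by a size factor. How reads were counted on genes, and whether by strand, is not given in the sources used here. Columns were assigned to mice through their library names, with 0 columns of other samples. Whole reads were recovered for 100% of the values (largest deviation from a whole number 0.00042, tolerance 0.01), 15691662 to 20761315 per library. In 2 WT libraries 1 read is worth close to 1, so that a general check cannot tell the steps from whole counts. On these reads edgeR called 5 genes and DESeq2 811.

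Genotypes were compared with limma 3.58.1 in R 4.3.3, using lmFit and then eBayes with a trend, on log2(value + 1), keeping genes whose mean was 10 or more, with Benjamini-Hochberg adjustment over 12808 genes and a threshold of 0.05. The replicates are separate mice. Such fold changes understate the change of genes with few reads. A two-sided exact permutation test over libraries was run beside limma for single genes. Alternatives were pseudocounts of 0.5 and 5, quantile normalization, no filter or a minimum of 10 per library, the recovered reads in edgeR 4.0.16 and in DESeq2 1.42.0 with and without WT replicate 2, a block for the replicate number or the library letter, 1 surrogate variable (sva 3.50.0), and each library left out. The steps were tested on simulated counts in which no library stood apart. That test therefore does not cover the effect of a library such as WT replicate 2.

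The genes and lists were chosen with earlier results of these data known. Named are the 10 genes, *Chd8*, the 3 genes with the smallest limma p in each pathway list (ties by larger fold change), and the 10 genes of nearest profile. Gene positions and lengths come from GENCODE M21 and promoters from RefSeq, both on GRCm38, the build that mm10 names.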

Additional observations from a re-analysis of the deposited data

How the results depend on the processing

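All 10 genes kept a positive log2 fold change in every alternative but that with 1 surrogate variable, where the median of the 10 was 0.070, *Pcna* was at -0.17 and *Rrm2* at -0.035. That variable was highest in WT replicate 2, at 0.33. It lay between -0.50 and -0.18 in the other WT libraries and between -0.04 and 0.31 in *Chd8L*+/-. Apart from WT replicate 2, it was thus itself split by genotype. With it the list medians were 0.082 for helicase activation, 0.066 for polymerases, -0.048 for deoxynucleotide supply, 0.162 for fork protection, 0.120 for chromatin assembly, 0.393 for *Mcm8* and *Mcm9*, 0.231 for mitosis, 0.016 for clamp loading, 0.052 for G1/S regulators, 0.032 for inhibitors and turnover and -0.075 for origin recognition. The number of the 10 genes past the threshold was 0 except without WT replicate 2 (9 in limma, 8 in edgeR, 9 in DESeq2), a range of 0 to 9 over the libraries left out, and the cause was not tested. Over all genes, 3 passed in limma with all libraries, 5 in edgeR, 811 in DESeq2, 451 with the library letter as a block, 0 to 3534 over the libraries left out (3534 without WT replicate 2), and 3365 in edgeR and 4112 in DESeq2 without WT replicate 2.

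With the replicate number as a block 0 genes passed, 0 of the 10 among them, and their median was 0.88. The numbers do not mark shared animals: same-numbered libraries correlated at 0.19, -0.34, -0.13, -0.17 and -0.23, and 1 of the 5 WT libraries correlated best with its own number. Counting error bears most on genes with few reads, such as *Cdc6* and *Orc1*.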
